A study of Noccaea goesingensis with 12 samples.

Results

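The roots of Ni-treated plants of *Noccaea goesingensis*, a Ni hyperaccumulator of the Brassicaceae, were compared between a metallicolous population from serpentinite (TM ecotype) and a non-metallicolous population from dolomite (NTM ecotype). Both groups were treated with Ni for 3 weeks, and the roots of 5 plants were combined in each library. By the sample labels, there were 2 libraries of TM plants with Ni and 3 libraries of NTM plants with Ni, among 12 libraries in all. The others were 4 TM and 3 NTM libraries of plants without Ni. The paper describes groups of equal size, which differs from the labels for both TM groups. Which TM libraries had Ni was therefore not settled. Nor was it settled whether the stated number of plants per library holds for the larger TM group. Each ecotype was represented by a single population, so that the ecotype and the place of origin cannot be told apart. The paper and the sample labels name different growth substrates, and which was used was not settled.

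The deposited comparison of the ecotypes under Ni lists 1944 genes, out of 5273 genes listed between the ecotypes with or without Ni. Reads were aligned to the genome of *Arabidopsis thaliana*, a relative of *Noccaea*, so a gene here is the *A. thaliana* locus to which the reads of either population aligned. Each gene has 1 value per group, in FPKM (a count of fragments scaled to the length of the transcript and the size of the library), which is the authors' value over the libraries of the group. The unit follows the study's methods, while the headers of part of the files say TPM. The list holds genes with an unadjusted *p*-value of the authors under 0.05, and therefore a gene that is not listed is not shown to be alike in the ecotypes. For each gene the ratio log2((TM + 1)/(NTM + 1)) was computed from the deposited FPKM values, on which 1 is about a 2-fold difference and negative values mean a lower level in TM plants. Described in detail are the genes with at least 10 FPKM in the higher group and a ratio of at least 1 in either direction, which is called the rule below. These were 1565 genes, or 80.5% of the 1944 listed. With 1 value per group, no replicate error, test or left-out library stands behind any value, and depth is unknown from the files. In the study's own alignment statistics, 1 of the 3 NTM libraries with Ni held far fewer reads than the other 4 libraries with Ni. Its part in the NTM values was not tested.

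Of the 1565 genes past the rule, 707 (36.4% of the listed genes) were higher in the TM ecotype and 858 (44.1%) were lower. The 379 remaining listed genes comprised 320 with at least 10 FPKM but a ratio under 1, 58 with a ratio of at least 1 but a level under 10 FPKM, and 1 that missed both limits. At the limit on the level, the last genes inside stood at 10.0 FPKM in the higher group and the first ones outside at 9.93 and 9.91 FPKM. At the limit on the ratio, both last genes inside had a log2 ratio of 1.00, and the first ones outside stood at 64.6 and 178.3 FPKM in NTM plants against 31.8 and 88.7 FPKM in TM plants. No listed gene had a log2 ratio between -0.73 and 0.75, since small differences were not listed.

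**Figure D1:**
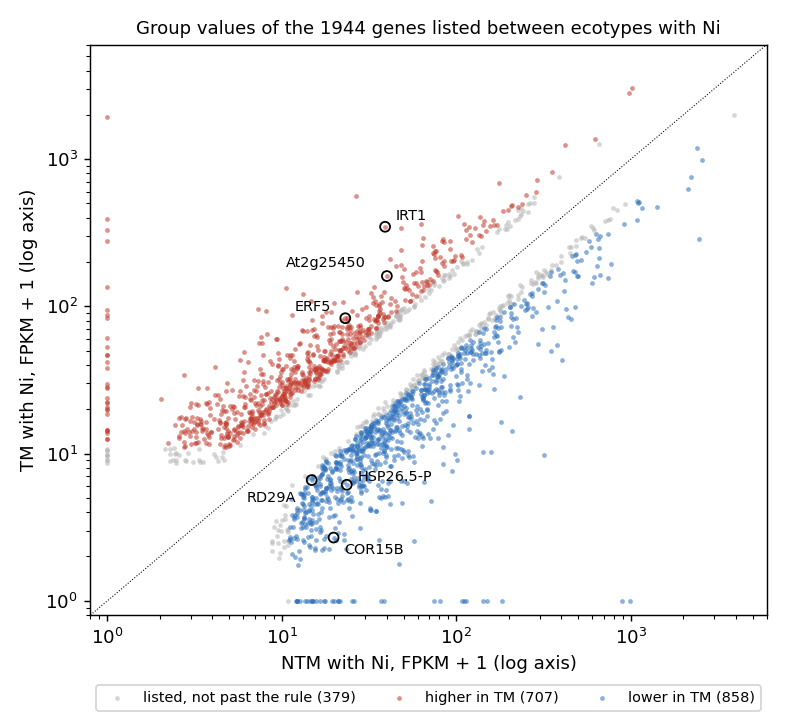
Each point is 1 of the 1944 listed genes, with its NTM value (horizontal) and TM value (vertical) under Ni as FPKM + 1 on log axes, coloured by direction for the 1565 genes past the rule and grey for the other 379. Circles mark the 6 genes that the paper names. The empty band along the dotted line of equal values is where no gene was listed, and the points on the left and lower edges are genes at 0 in 1 ecotype.

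Plants take up iron with a plasma membrane transporter of broad substrate range, which also carries Ni, after a reductase has reduced ferric iron at the root surface. Nicotianamine and histidine bind metals inside the plant, and pumps load them into the xylem. Water and solutes that move through the root meet the endodermis, with its suberin and with the Casparian strip that closes the path between its cells. They cross membranes through aquaporins. The genes of 12 such roles were followed as lists of *A. thaliana* identifiers, assigned by role from general knowledge of that species. The deposited tables hold identifiers without names, so single genes are named only where the paper pairs a name with an identifier, and the other list members are described as groups. The lists do not cover whole gene families, and every count below holds for the list alone. Where genes of the same role outside a list are given, they were chosen after their values were seen. Of 259 identifiers on the lists, 44 were listed with Ni and 42 were past the rule (19 higher and 23 lower in the TM ecotype), which is 95.5% of those listed, beside the 80.5% of all listed genes. The lists were chosen with earlier results of these data known, so the higher share is no result about these roles.

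Among the iron uptake genes, 5 of the 41 list members were listed with Ni and all 5 were past the rule, 4 higher and 1 lower in the TM ecotype. *IRT1* (AT4G19690), the iron transporter of the root epidermis in *A. thaliana*, was the most abundant of them. Its locus lies on chromosome 4 from 10707426 to 10709015 in TAIR10. *IRT1* stood at 38.1 FPKM in NTM and 346.4 FPKM in TM plants, 9.10 times higher, and its log2 ratio of 3.15 ranked 39 among the 707 genes higher in TM. The other 3 genes of the list that were higher in TM had 3.14, 5.59 and 18.03 FPKM in NTM plants. In TM plants the same genes had 24.0, 22.7 and 49.0 FPKM. The single gene that was lower went from 21.0 FPKM in NTM to 4.55 FPKM in TM plants. This gene was also the only one of the 5 that was listed without Ni, in the same direction. Without Ni the list had 8 listed genes, 6 higher and 2 lower in TM plants, of which 4 higher and 1 lower met the rule there, the same numbers as with Ni. The median log2 ratio of the 5 genes was 1.84, compared with -0.90 over all 1944 genes.

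Of the 47 metal transport and chelation genes on the list, 4 were listed with Ni, each with the higher value in TM plants, and 3 were past the rule. Without Ni 13 were listed, 10 higher and 3 lower in TM plants. The largest difference among them was from 17.0 FPKM in NTM to 90.13 FPKM in TM plants, a log2 ratio of 2.34. Another had 17.77 FPKM in NTM and 41.1 FPKM in TM plants with Ni, and without Ni its values were 17.7 and 44.6 FPKM, so that it stood in the same order in both states. The member short of the rule had 9.09 and 17.61 FPKM, a log2 ratio of 0.88. *IRT2*, *ZIP10*, *MTP8*, *IREG2* and *COPT4*, which the paper names as metal transporters, were not listed with Ni. Of 16 genes of sulfur, glutathione and histidine metabolism, 1 was listed, with 23.8 FPKM in NTM and 71.5 FPKM in TM plants. Of 8 genes for nitrate, phosphate and potassium uptake, 1 was listed, with 24.6 and 51.4 FPKM.

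The aquaporins, channels for water and small solutes, included some of the most abundant genes past the rule, and the 6 listed of the 18 on the list were all lower in the TM ecotype. An aquaporin gene outside the list was past the rule in the other direction, with 18.5 FPKM in NTM and 45.7 FPKM in TM plants. Levels were 1158 FPKM in NTM and 468.0 FPKM in TM plants for the most abundant of the 6 on the list. For the next 4 genes, each with 1 value per group, the NTM values ranged from 486.1 to 739.3 FPKM and the TM values from 154.5 to 278.5 FPKM. The least abundant had 43.8 and 9.95 FPKM. Their log2 ratios ran from -2.25 to -1.04, with a median of -1.27. Of these 6 genes, 2 lie next to each other on chromosome 2, 2850 bp apart. The handling of reads shared by such neighbouring copies is not stated, which leaves the values of each uncertain. Without Ni, 4 of these 6 genes were listed and all 4 were lower in TM plants as well.

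The Casparian strip and suberin list had 5 of its 11 genes listed with Ni, all 5 past the rule and lower in TM plants. In NTM plants they stood at 99.0, 72.2, 44.4, 40.0 and 27.2 FPKM. In TM plants the same genes stood at 39.1, 34.7, 13.5, 17.7 and 3.59 FPKM. The largest ratio was that of the least abundant gene, which was 7.58 times lower in TM plants. The same 5 genes were listed in roots without Ni, again lower in the TM ecotype every time, with log2 ratios from -2.03 to -0.81 there and from -2.62 to -1.04 with Ni. The endodermal genes on this list also served as markers of root tissue. Of 8 root markers, 4 were listed, and none of these was at 0 in either group. Of 11 markers of photosynthetic shoot cells, 1 was listed, with 35.9 FPKM in NTM and 12.5 FPKM in TM plants. Photosynthesis genes outside the list were past the rule in both directions. Some were lower in TM plants, like the listed marker. Of those higher in TM plants, 3 had 6.80, 3.81 and 5.91 FPKM in NTM plants. In TM plants the same 3 had 45.4, 15.0 and 30.6 FPKM. The gene with 3.81 FPKM had the opposite order without Ni, with 9.79 FPKM in NTM and 3.91 FPKM in TM plants. The part of shoot material in the results was not tested. In RNA of whole roots, fewer cells of a type and less RNA per cell cannot be told apart.

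**Figure D2:**
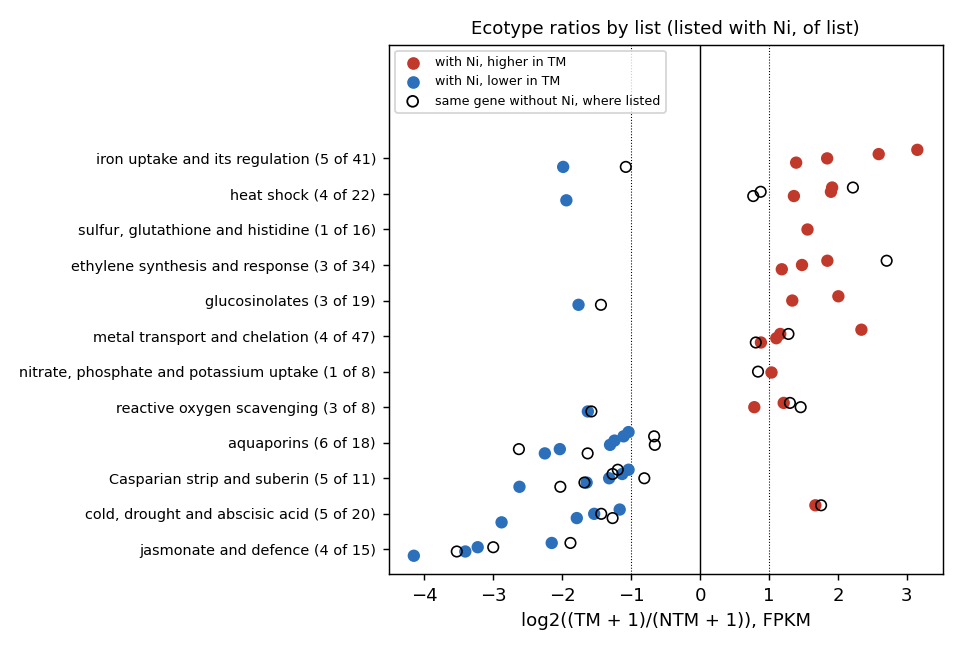
Log2 ratios of TM over NTM for the listed genes of the 12 lists, with the number listed with Ni and the length of the list in parentheses. Filled points are with Ni, open circles the same gene without Ni where it was listed there, and dotted lines mark the limits of -1 and 1. With Ni, the listed genes of the aquaporin, Casparian strip and suberin, and jasmonate and defence lists are lower in TM plants. Those of the metal transport and ethylene lists are higher. Some genes of the aquaporin, defence and ethylene roles outside the lists differed in the other direction. Metal transport genes outside the list are not described.

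Stress-related genes were split between the ecotypes. Among the heat shock genes on the list, 4 of 22 were listed, 3 of them higher in TM plants with values of 9.51, 14.3 and 31.6 FPKM in NTM and 38.2, 38.3 and 122.0 FPKM in TM plants. These 3 were listed in the same order without Ni. *HSP26.5-P* (AT1G52560, chromosome 1 from 19574760 to 19575866), a small heat shock protein, had 22.5 FPKM in NTM and 5.14 FPKM in TM plants, and it was not listed without Ni. Another small heat shock gene outside the list was also lower in TM plants, with 38.4 FPKM in NTM and 8.77 FPKM in TM plants, and without Ni with 29.4 and 10.5 FPKM. Of 20 genes responding to cold, drought and abscisic acid, 5 were listed and 4 were lower in TM plants. *COR15B* (AT2G42530, chromosome 2 from 17709036 to 17709945), a cold-regulated gene, had 18.8 FPKM in NTM and 1.69 FPKM in TM plants, 11.1 times lower. For *RD29A* (AT5G52310, chromosome 5 from 21240849 to 21243613), a gene induced by low temperature and drought, the values were 13.8 and 5.61 FPKM. Neither *COR15B* nor *RD29A* was listed without Ni. The other 2 lower genes of this list had 139.5 and 14.9 FPKM in NTM and 47.5 and 3.62 FPKM in TM plants, and both were lower in TM plants without Ni too. The gene that was higher had 36.1 FPKM in NTM and 117.2 FPKM in TM plants, and without Ni 26.2 and 90.9 FPKM. Without Ni 12 genes of the list were listed, 7 higher and 5 lower in TM plants, with a median log2 ratio of 0.92. The median of the 5 genes listed with Ni was -1.54. These medians cover different genes, since only 3 were listed in both states, each in the same direction.

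Of 34 ethylene synthesis and response genes on the list, 3 were listed with Ni, each with the higher value in the TM ecotype. Another 3 ethylene response factor genes outside the list were past the rule in the other direction, with 59.3, 40.4 and 66.2 FPKM in NTM and 14.8, 12.0 and 21.4 FPKM in TM plants, and all 3 were lower in TM plants without Ni as well. *ERF5* (AT5G47230, chromosome 5 from 19179939 to 19181129), an ethylene-responsive transcription factor, had 22.1 FPKM in NTM and 82.1 FPKM in TM plants. Its log2 ratio was 1.85 with Ni and 2.71 without Ni, and with Ni it ranked 199 among the 707 genes higher in TM. The 2 other genes of the list had 75.5 and 15.5 FPKM in NTM and 173.2 and 45.0 FPKM in TM plants, and neither was listed without Ni. Without Ni the same list held 9 listed genes, 8 of them lower in TM plants, and *ERF5* was the single member listed in both states. *ACS7*, *ACO5*, *ERF98*, *ERF104* and *ERF105* were not among the genes listed with Ni. At2g25450 (chromosome 2 from 10829916 to 10831655) was assigned to the response to ethylene in the paper and to the glucosinolates in the lists used here. It had 39.0 FPKM in NTM and 159.7 FPKM in TM plants, a log2 ratio of 2.01, and was not listed without Ni.

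Of the 12 lists, that of jasmonate and defence genes had the median ratio farthest from 0. The 4 listed of the 15 genes on it were all lower in the TM ecotype, with a median log2 ratio of -3.32. Another 3 jasmonate and defensin genes outside the list were past the rule in the other direction, with 18.6, 27.0 and 90.8 FPKM in NTM and 64.7, 64.6 and 278.9 FPKM in TM plants. Of the 4 genes on the list, the most abundant stood at 401.0 FPKM in NTM and 42.0 FPKM in TM plants. The others on the list stood at 48.1, 29.7 and 16.8 FPKM in NTM plants. Their TM values were 3.63 and 5.92 FPKM, and the last gene was listed at 0. The 3 genes above 0 in both ecotypes were also listed without Ni, with log2 ratios from -3.53 to -1.88. Of 19 glucosinolate genes, At2g25450 and another gene, with 17.9 FPKM in NTM and 46.7 FPKM in TM plants, were higher and 1 was lower, from 636.8 to 186.9 FPKM. Among 8 genes for the removal of reactive oxygen, 3 were listed. An abundant one of them had 354.1 FPKM in NTM and 822.7 FPKM in TM plants, and another had 654.7 and 211.2 FPKM. Both stood in the same order without Ni (331.5 and 820.2 FPKM, and 680.5 and 227.6 FPKM). The values of the states with and without Ni were scaled separately, so levels are not compared between them. The third, with 89.7 and 155.6 FPKM, was short of the rule.

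Under centring on the median ratio of all listed genes, which takes the median of -0.90 off every log2 ratio, no list member could change its sign, since the lower ones all lay at -1.04 or below. The genes past the rule were then 2 of 6 for the aquaporins, 1 of 5 for the Casparian strip and suberin, and 4 of 4 for jasmonate and defence, and the iron uptake genes stayed at 4 higher and 1 lower. Of the genes responding to cold, drought and abscisic acid, 1 higher and 1 lower were past the rule, and the lower glucosinolate gene and the lower gene for the removal of reactive oxygen no longer were. Over all listed genes this scaling gave 76.3% higher in TM among those past the rule, beside 45.2% with the values as deposited. The median lay among the genes lower in TM, next to the range around 0 in which no gene was listed.

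By level, the highest class held the smallest share of genes higher in TM plants (26.8%). In this class of 500 FPKM and over in the higher group there were 41 genes past the rule, 11 higher and 30 lower in the TM ecotype. From 100 to 500 FPKM the numbers were 113 and 157, and from 10 to 20 FPKM they were 175 and 190. The most abundant gene higher in TM had 1011 FPKM in NTM and 3041 FPKM in TM plants, and the most abundant gene lower in TM had 2555 and 985 FPKM. Most ratios were small, with 1170 of 1565 genes between 1 and 2 on the log2 scale in either direction, 291 between 2 and 3, 54 between 3 and 4, and 50 at 4 or over. The median log2 ratio was 1.45 for the genes higher and -1.57 for those lower in TM. Median levels in the higher group were 36.4 FPKM for genes higher in TM and 39.2 FPKM for genes lower in TM.

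**Figure D3:**
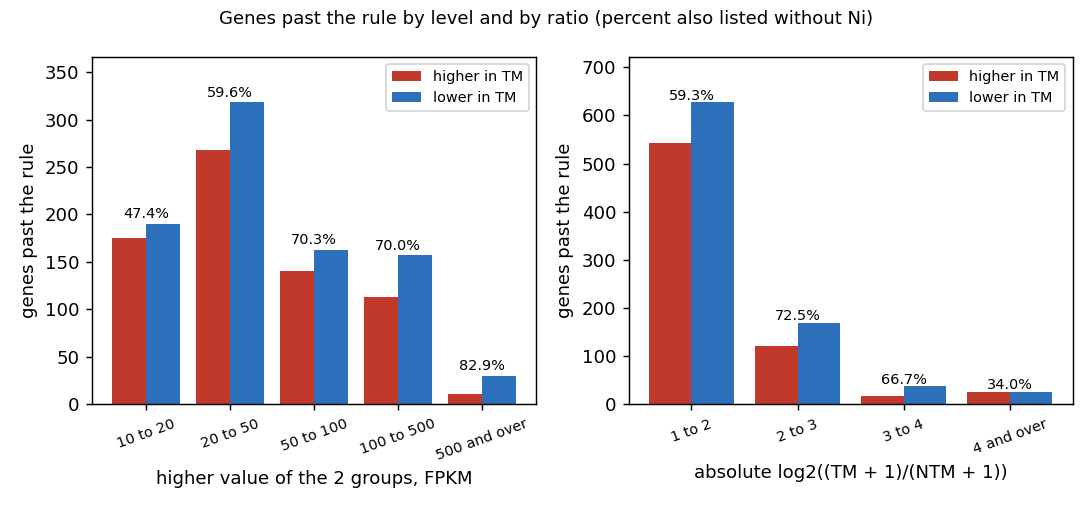
Number of genes past the rule that were higher (red) or lower (blue) in the TM ecotype, by the level in the higher group in FPKM (left) and by the absolute log2 ratio (right), with bars starting at 0. The percentage over each class is the share of its genes that was also listed without Ni, from 47.4% at 10 to 20 FPKM to 82.9% at 500 FPKM and over, and the lowest share on the right is that of the 50 genes with a ratio of 4 or over.

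The largest ratios were those of genes at 0 in 1 ecotype. Of the 50 genes with a log2 ratio of at least 4 in either direction, 46 were listed at 0 in 1 group, as were 64 of all 1565 genes, 34 in TM and 30 in NTM plants. The median length of these 64 loci was 393 bp, compared with 1913 bp for the 1501 genes above 0 in both groups. A value of 0 at a short locus can be a failed estimate, and no fold is given against it. At the top of both directions were AT2G47660 on chromosome 2 from 19542952 to 19543160, with 1940 FPKM in TM plants and listed at 0 in NTM plants, and AT5G62998 on chromosome 5 from 25279882 to 25279995, with 987.2 FPKM in NTM plants and listed at 0 in TM plants. Neither was listed without Ni. Among genes above 0 in both ecotypes, AT5G23950 (chromosome 5 from 8082744 to 8083604) had the highest ratio, with 25.7 FPKM in NTM and 565.0 FPKM in TM plants, 22.0 times higher. The lowest ratio was that of AT3G02080 (chromosome 3 from 363881 to 365275), with 315.2 FPKM in NTM and 8.81 FPKM in TM plants, 35.8 times lower. Both of these were listed without Ni in the same direction, with log2 ratios of 3.06 and -4.42 there, compared with 4.41 and -5.01 with Ni. No name is given for these 4 identifiers in the tables, and AT5G23950 was chosen after its values were seen.

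**Figure D4:**
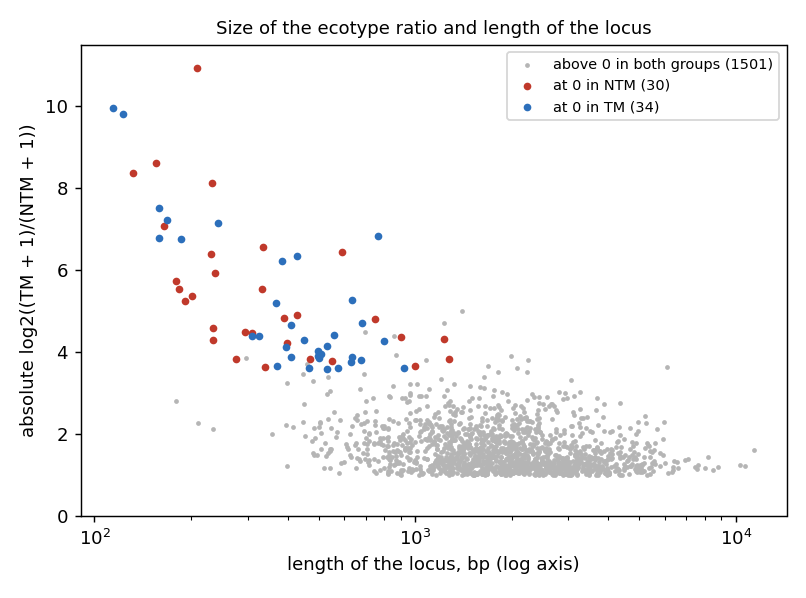
Absolute log2 ratio against the length of the locus in bp (log axis) for the 1565 genes past the rule. Coloured points are the 64 genes at 0 in 1 ecotype, which take up the upper left, and grey points are the 1501 genes above 0 in both.

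Genes past the rule were spread over all 5 nuclear chromosomes, from 239 on chromosome 4 to 415 on chromosome 1. The share that was higher in TM plants was 38.5% on chromosome 4 and between 43.2% and 48.0% on the others. Of the mitochondrial genome, 4 genes were past the rule, all lower in TM plants, with NTM values from 13.8 to 88.2 FPKM and TM values from 0 to 12.3 FPKM. Another 2 mitochondrial genes were listed but short of the rule, the first with 3881 FPKM in NTM and 1984 FPKM in TM plants and the second listed at 0 in NTM and at 8.06 FPKM in TM plants. A single plastid gene was past the rule, with 18.6 FPKM in TM plants and 0 in NTM plants. Neighbouring genes past the rule less than 5000 bp apart differed in the same direction in 99 of 179 pairs (55.3%), and pairs farther apart in 715 of 1379 (51.8%).

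The same comparison in roots without Ni comes from other libraries. The rule takes only the values with Ni, but it was chosen with earlier results of these data known. Of the 1565 genes past the rule with Ni, 958 (61.2%) were also listed without Ni, beside 58.2% of all 1944 genes. Among genes lower in TM this was 587 of 858 (68.4%), and among genes higher in TM 371 of 707 (52.5%). Over all listed genes the shares were close to these, 66.2% of those lower and 48.8% of those higher in TM. The order of the ecotypes was the same in both states for 948 of the 958 genes, 364 higher and 584 lower in TM plants. Over all 1944 genes it was the same for 1119 of the 1131 listed in both states, so the agreement is not particular to the rule. The rule was also met without Ni by 623 of the 958 genes, 618 of them in the same order, where 38.4% of the 4460 listed genes met it. Across the 958 genes the ratios of both states were correlated with r = 0.92 (Pearson) and rho = 0.87 (Spearman). Within one direction the Pearson r was 0.36 for the genes higher and 0.79 for the genes lower in TM. Genes are not independent replicates, and the points of a state share its libraries. The median absolute log2 ratio of the 958 genes was 1.59 with Ni and 1.23 without Ni. Of the 948 genes in the same order, 725 had the larger ratio with Ni, the state in which they were chosen.

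**Figure D5:**
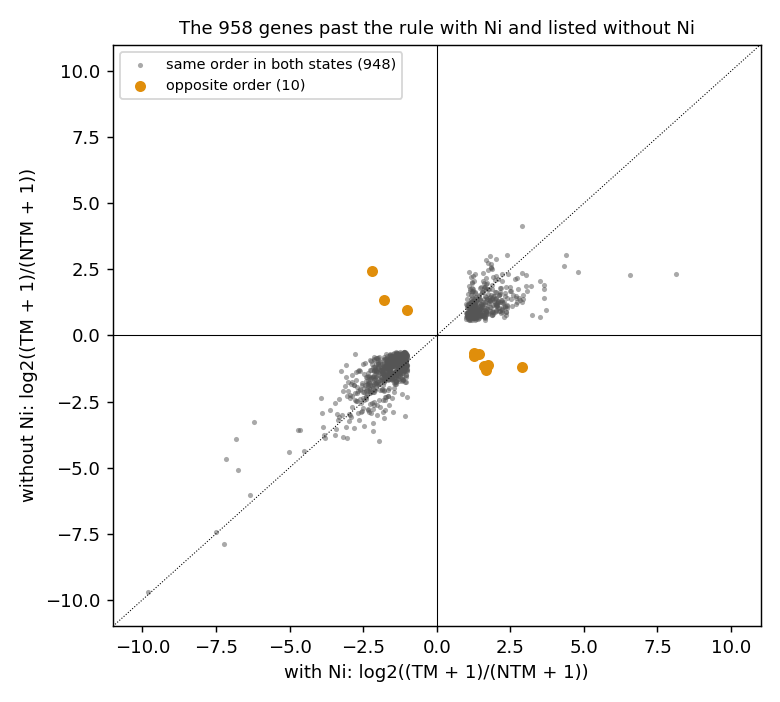
Log2 ratio of TM over NTM with Ni (horizontal) and without Ni (vertical) for the 958 genes past the rule with Ni that were also listed without Ni. Grey points are the 948 genes in the same order in both states and orange points the 10 in opposite order, and the dotted line marks equal ratios.

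A group of 607 genes past the rule with Ni was not listed without Ni, 336 higher and 271 lower in TM plants. *IRT1*, At2g25450, *HSP26.5-P*, *COR15B* and *RD29A* belong to it. Their levels without Ni are not in the tables used here, so a difference that appears with Ni was not shown for them. From its own comparison within each ecotype, the paper reports *IRT1* as up with Ni in TM and down in NTM plants. In NTM plants it reports *HSP26.5-P*, *COR15B* and *RD29A* as up and At2g25450 as down with Ni. Opposite order in both states was found for 10 genes, 7 of them higher in TM with Ni. The largest ratio with Ni among these was that of a gene at 13.7 FPKM in NTM and 108.5 FPKM in TM plants, which without Ni had 130.6 FPKM in NTM and 56.0 FPKM in TM plants.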

How the data were processed

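Roots of both ecotypes were sequenced on the Ion Proton System after poly(A) selection. The authors trimmed reads with cutadapt 1.8.1, aligned them to *A. thaliana* (TAIR10 in the submitters' processing notes) with HISAT2 2.1.0 and ran Cuffdiff of Cufflinks 2.2.1. The values the authors deposited are FPKM scaled across libraries by the geometric method, with 1 value for each group of libraries. The files of single groups are headed TPM, which was not settled, and equal the comparison tables in every value (0 differing values). The p-value that the authors deposited for each gene came from their Cuffdiff comparison and was read only to see that every listed gene lies under 0.05. Their log2 fold change was not used.

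Each value column was mapped to a group through the labels, and 0 columns were left unmapped. Locus starts count from 1. The ratio used a pseudocount of 1 FPKM and was not tested. Aligned reads per library were not analysed here. Named genes are those of the paper listed with Ni, and the extremes of either direction, of which 2 identifiers each are printed. The genes, lists and rule were chosen with earlier results of these data known. The list assignments could not be checked against an annotation. Other pseudocounts, limits, scaling and the removal of genes at 0 were tried. Python 3.11.15, numpy 2.4.6, pandas 2.3.3 and matplotlib 3.10.9 were used.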

Additional observations from a re-analysis of the deposited data

Results flagged for a closer look

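The ecotype order of 10 genes past the rule with Ni was opposite in roots without Ni. These genes were noted because the groups of one state differ in the other direction than those of the other state. Their absolute log2 ratios ran from 1.03 to 2.90 with Ni and from 0.67 to 2.43 without Ni. With 1 value in each group the difference between the states was not tested.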

How the results depend on the processing

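All counts rest on 1 value per group, so no library could be left out, and the limits below are of the rule only. No paired analysis was possible because each group has 1 value. A pseudocount of 0.1 or 5 FPKM, no minimum or a minimum of 20 FPKM, at least 1 FPKM in the lower group and the removal of genes at 0 kept the count of genes past the rule, in all and in each direction, within 1.5 times 1565, 707 and 858. A ratio of at least 2 left 395 genes, 164 higher and 231 lower in TM, of which 264 were listed without Ni and 262 had the same order there. Centring on the median ratio of all listed genes gave 1134 genes, 976 of the 1565 and 158 others, with 865 higher and 269 lower in TM, of which 623 were listed without Ni and 616 had the same order there. Such a centring moves every ratio upward by construction. By construction, none of these settings could turn the sign of a gene past the rule. *RD29A* had a log2 ratio of -0.83 with a pseudocount of 5 FPKM and of -0.27 after centring. The other 5 genes named by the paper stayed past the rule under these 2 settings. With a minimum of 20 FPKM, *COR15B* and *RD29A* were no longer past the rule. At a ratio of at least 2, *HSP26.5-P*, *ERF5* and *RD29A* were not.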
